A study of Mus musculus with 58 samples.

Results

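The ends of the 19 mouse autosomes were examined for acetylation of histone H3 at lysine 27 (H3K27ac) in oocytes of the stage labelled FGO. Windows of 5 kb were tiled from each chromosome start of the build mm9. The 11400 windows between 3 and 6 Mb, next to the centromere, formed the pericentromeric set, and the 11381 windows wholly inside the last 3 Mb before the chromosome end formed the subtelomeric set. These 22781 windows were chosen by position alone, out of 483057 autosomal windows past 3 Mb, and the remaining 460276 served as the rest of the autosomes. The series holds 58 samples of oocytes, embryos, sperm and stem cells, and 4 of them carry the antibody against H3K27ac. The control oocytes were labelled Setd2+/-, so they lack 1 copy of the gene, and the knockout oocytes were labelled Setd2-/-. The labels give females 8 weeks old, do not name the driver of the deletion, and point both replicates of a genotype to 1 shared file. Each track is therefore a pool of 2 samples, there was no spread between replicates, and no test or p-value could be had for any difference between the genotypes. The measurement was STAR ChIP-seq, an immunoprecipitation of chromatin for small numbers of cells, and the deposited values are RPKM, a read density scaled to bin length and library size, in bins of 100 bp. The control track held 30694806 reads and the knockout track 29367645.

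Mouse chromosomes carry the centromere at one end. Long arrays of satellite repeats lie there, packed as heterochromatin, and the genome build leaves that stretch unsequenced, so that mapped sequence begins right beside it. At the other end lie the telomeric repeats, and subtelomeric sequence holds gene families and segments that are duplicated between chromosomes. H3K27ac marks active promoters and enhancers and is scarce in heterochromatin. SETD2 is the methyltransferase that places H3K36me3 along transcribed genes, a mark that in oocytes also guides DNA methylation. Genes at the ends were read from the RefSeq order of protein-coding genes of GRCm38. Genes with provisional symbols and several gene families, olfactory receptors among them, were left out first. Among the genes kept, the centromere side of chromosome 19 opens with Ighmbp2, Mrpl21 and Cpt1a, and that of chromosome 16 with Mefv and Zfp263. That of chromosome 11 opens with Sfi1, whose product binds centrins. The telomere side of chromosome 4 closes with Noc2l and Samd11, and that of chromosome 3 with Rpe65 and Wls. No position was taken from that build and no window was assigned to a gene.

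Both ends were near the level of other autosomal sequence in control oocytes and above it in knockout oocytes. In the control track the mean was 0.391 RPKM over pericentromeric windows, 0.410 RPKM over subtelomeric windows and 0.382 RPKM over the rest. In the knockout track the same means were 0.479, 0.483 and 0.392 RPKM. The pericentromeric level was thus 1.02 times that of the rest in control and 1.22 times in knockout, and the subtelomeric level 1.07 times in control and 1.23 times in knockout. Knockout over control came to 1.23 in pericentromeric windows (95% counting interval 1.22 to 1.23), to 1.18 in subtelomeric windows (1.18 to 1.18) and to 1.03 in the rest. Counting error is all these intervals hold, and since reads were more uneven than independent counts, they are too narrow. Relative to the rest, the knockout over control ratio was 1.19 for pericentromeric and 1.15 for subtelomeric windows. RPKM is scaled to library size, so these values compare parts of 1 track with each other and give no absolute amount of acetylation.

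Medians over windows gave other ratios than means. The median pericentromeric window stood at 0.319 and 0.293 RPKM in control and knockout, a ratio of 0.917, against 0.319 and 0.245 RPKM in the rest, a ratio of 0.768. The median subtelomeric window stood at 0.358 and 0.361 RPKM, a ratio of 1.01. Ratios of medians were lower than ratios of means in all 3 sets, and both ends lay above the rest by either measure. Of the pericentromeric reads of the knockout track, 9.67% came from a single segment of 75 kb on chromosome 11, against 3.70% in control. Without the 23 pericentromeric windows at 10 times the genome-wide mean of 0.379 RPKM or more in either track, the control and knockout means of the pericentromeric set were 0.376 and 0.425 RPKM. The control mean then lay slightly below that of the rest, at 0.985 times, and the knockout over control ratio relative to the rest was 1.10 in place of 1.19. No subtelomeric window reached 10 times the mean.

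**Figure D1:**
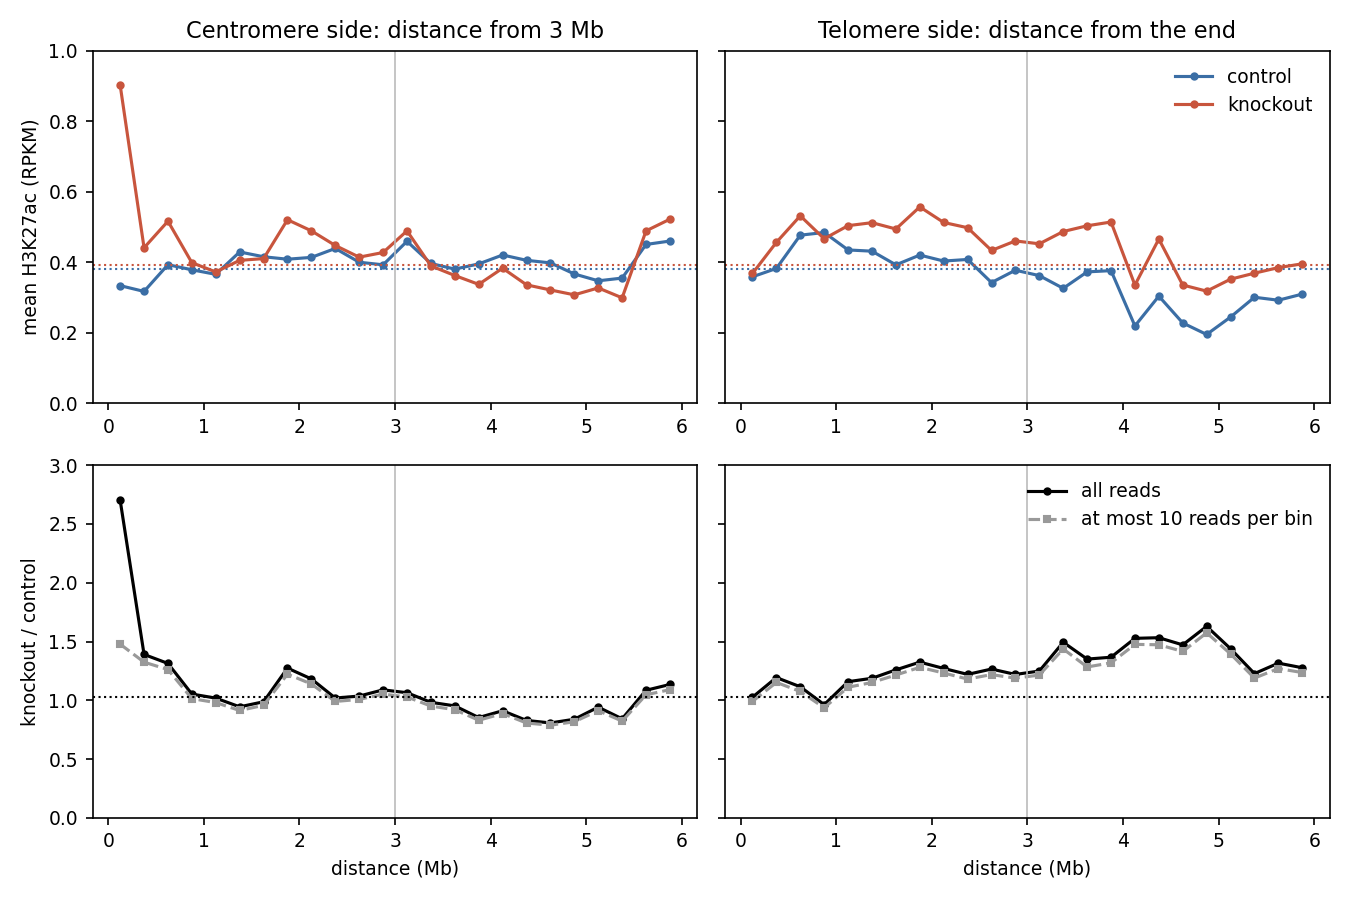
Mean H3K27ac (RPKM, upper panels) of the control track (blue) and the knockout track (red), and their ratio (lower panels), in steps of 250 kb over all 19 autosomes, against the distance from 3 Mb (left) and from the chromosome end (right). Dotted lines give the rest of the autosomes, grey vertical lines the limit of each 3 Mb set, and grey squares the ratio when a bin counts for 10 reads at most. The first step after 3 Mb stands out at 0.903 RPKM in knockout, and the ratio on the telomere side is higher inside the limit of 3 Mb than at the very end.

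At the centromere side the knockout track exceeded control most in the first 3 steps of 250 kb. The first had a control mean of 0.334 RPKM and a knockout mean of 0.903 RPKM, a ratio of 2.70. Without the windows at 10 times the mean, all 23 of which lay in this step, the ratio was 1.62, and it was 1.48 when no bin counted for more than 10 reads. The next 3 steps had ratios of 1.39, 1.31 and 1.05. Further in, the eighth and ninth had 1.27 and 1.18. Here the median window was poor in both tracks: in the first 250 kb it stood at 0.0521 and 0.116 RPKM in control and knockout, and 7.58% of windows were without a read in either track. Taken by 1 Mb, the ratio was 1.59 in the first, with 16 of 19 chromosomes higher in knockout. It was then 1.06 and 1.08, with 11 of 19 chromosomes higher in each. With at most 10 reads per bin these ratios were 1.24, 1.02 and 1.05. All 3 counts include chromosome 14, which had 7 control reads and 138 knockout reads in the first 1 Mb. In the rest of the autosomes 12 of 19 chromosomes were higher. From 3 to 6 Mb further inward the ratio was 0.944, and 8 of 19 chromosomes were higher in knockout.

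The telomere side showed the reverse order with distance. The last 1 Mb before the end had 0.426 and 0.456 RPKM in control and knockout, a ratio of 1.07, and 9 of 19 chromosomes were higher in knockout. The ratio was 1.23 in the next 1 Mb and 1.24 in the one after it, with 13 and 14 of 19 chromosomes higher. Just outside the subtelomeric set, from 3 to 6 Mb before the end, the control mean was 0.294 RPKM and the knockout mean 0.410 RPKM, a ratio of 1.39 with 17 of 19 chromosomes higher. The larger ratio there went with a lower control level, not with a higher knockout level. From 6 to 9 Mb before the end the ratio was 1.38. The higher ratio of the subtelomeric set therefore was not limited to the last 3 Mb.

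**Figure D2:**
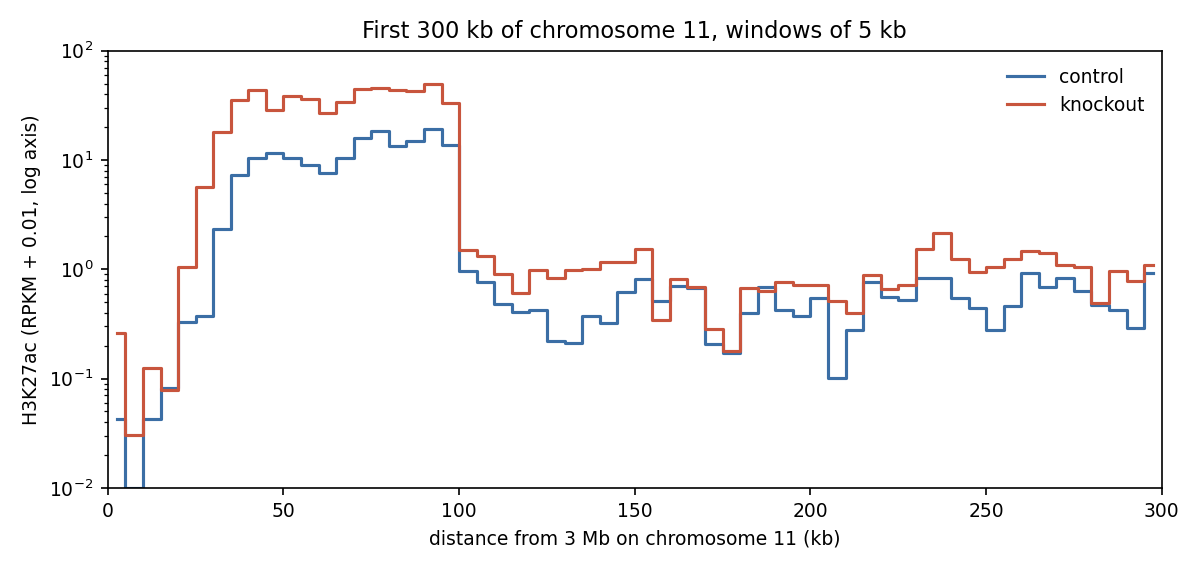
H3K27ac (RPKM + 0.01, log axis) in windows of 5 kb at the start of the sequence of chromosome 11, in the control (blue) and knockout (red) tracks. From 35 to 100 kb every window has at least 7.26 RPKM in control and 26.9 RPKM in knockout. Between 25 and 35 kb knockout is already at 5.63 and 17.96 RPKM while control is at 0.365 and 2.33 RPKM.

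The richest stretch of all autosome ends lay on chromosome 11 from 3025001 to 3100000 (mm9, as all positions here). It held 25283 control reads and 77505 knockout reads, or 0.0824% and 0.264% of each whole track. The control mean of 10.98 RPKM and the knockout mean of 35.2 RPKM gave a ratio of 3.20. Reads lay in 91.2% of its bins in control and 96.7% in knockout. Windows from 3035001 on ranged from 7.26 to 19.1 RPKM in control and from 26.9 to 49.6 RPKM in knockout, whereas the first 10 kb of the stretch was lower in both tracks. In the 25 kb before it the means were 0.0912 and 0.297 RPKM, and in the 100 kb after it 0.478 and 0.845 RPKM. Its highest window in both tracks, from 3090001 to 3095000, had 2924 control reads and 7277 knockout reads, or 19.1 and 49.6 RPKM, and its richest bin held 4.75% and 4.80% of them. At the near edge, the window from 3025001 to 3030000 had 56 and 827 reads, or 0.365 and 5.63 RPKM, which was the largest log2 ratio among the pericentromeric windows ranked, at 3.62. With at most 10 reads per bin the ratio of the stretch was 1.18, a limit below the mean number of reads per bin of the stretch in both tracks. The other 2925 kb of the pericentromeric sequence of chromosome 11 had 0.407 and 0.631 RPKM in control and knockout, a ratio of 1.55.

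A few other windows close to 3 Mb were rich, with at least 3.79 RPKM in either track. All were richer in the knockout track. Of these, only the window of chromosome 18 reached that limit in control, so for the others this direction followed from the choice. On chromosome 9, the window from 3000001 to 3005000 had 197 control reads and 1605 knockout reads, or 1.28 and 10.9 RPKM, an 8.52-fold difference (95% counting interval 7.34 to 9.93). Close to it but not adjoining, the 20 kb from 3015001 to 3035000 had 658 and 6111 reads, a ratio of 9.71. Up to 46.5% and 47.8% of a window's reads there lay in 1 bin. The window of chromosome 18 from 3005001 to 3010000 had 634 and 1728 reads, or 4.13 and 11.8 RPKM, a ratio of 2.85. On chromosome 12, the window from 3105001 to 3110000 had 390 and 4889 reads, but 81.5% of the control reads and 66.1% of the knockout reads lay in 1 bin. On chromosome 17, the window from 3080001 to 3085000 had 156 and 881 reads, of which 20.5% and 12.1% lay in 1 bin. How reads with several matching positions were placed is not known from the labels, and the part of repeats in these values was not tested.

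Chromosome 14 had almost no signal at its centromere side in either track. Its 600 pericentromeric windows held 80 control reads and 846 knockout reads, or 0.000869 and 0.00960 RPKM, and 368 windows were empty in both. Control reads lay in 42 windows with at most 8 in any of them, and knockout reads in 224 windows with at most 24. The ratio of 11.1 (95% counting interval 8.78 to 14.1) thus compares 2 very low levels, and no window of this end entered the 2-fold comparison. The poverty went beyond 6 Mb: from 7 to 8 Mb the control track had 85 reads and the knockout track 612. From 9 to 10 Mb, 13631 and 7437 reads were counted. Chromosome 14 supplied 368 of the 489 pericentromeric windows that were empty in both tracks.

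**Figure D3:**
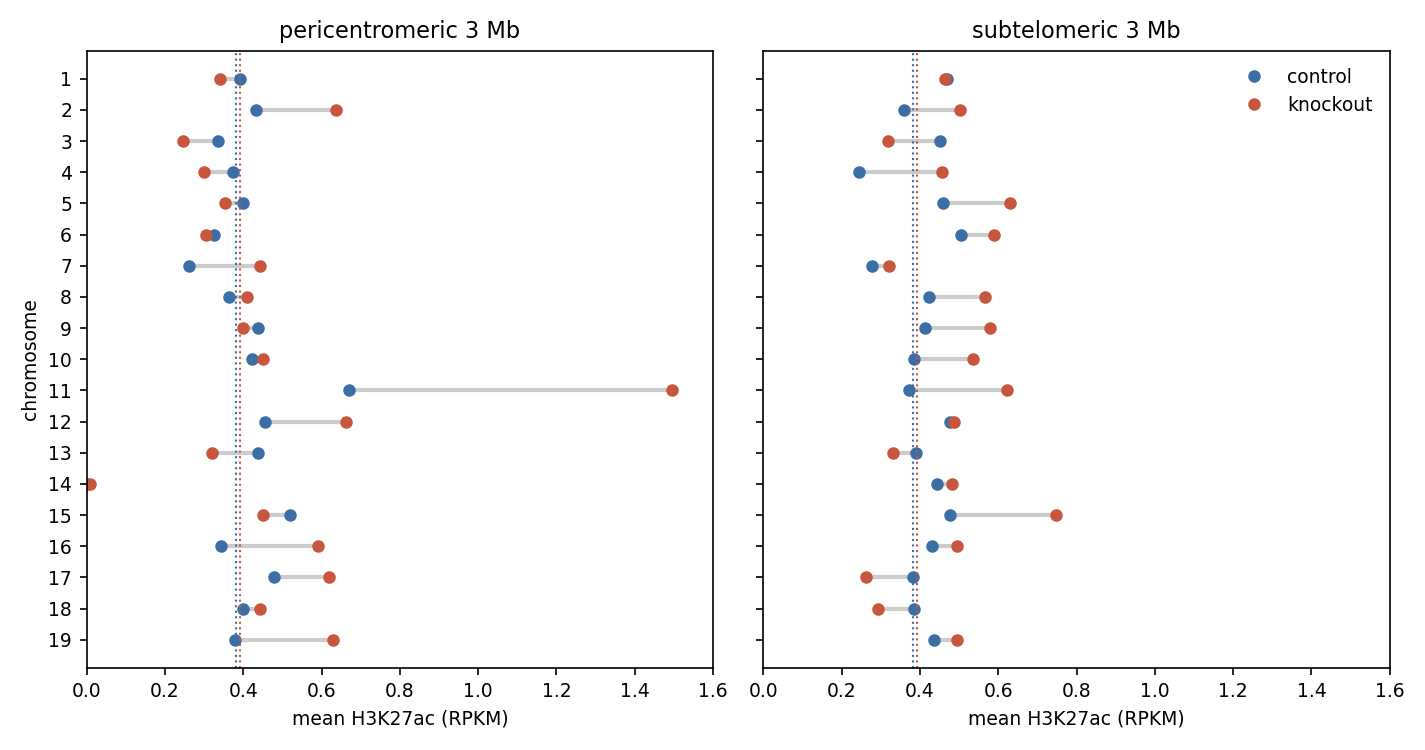
Mean H3K27ac (RPKM) of the pericentromeric (left) and subtelomeric (right) 3 Mb of each autosome, in the control track (blue) and the knockout track (red), with grey bars joining both. Dotted lines give the means over the rest of the autosomes, 0.382 RPKM in control and 0.392 RPKM in knockout. Chromosome 11 reaches 1.49 RPKM at its centromere side in knockout, chromosome 14 lies near 0 there, and the remaining ends fall on both sides of the dotted lines.

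Autosomes differed widely from one another at the centromere side. Leaving out chromosome 14, ratios of knockout over control ran from 0.732 to 2.23, with an SD of 0.422 over 18 chromosomes. The rest of the same chromosomes, with chromosome 14, ran from 0.908 to 1.16, but these are averages over much longer sequence. Blocks of 3 Mb inside the autosomes, of like size and described below, ran from 0.424 to 3.95. That highest block, on chromosome 12, was itself near empty, at 0.0207 and 0.0818 RPKM. Among inner blocks above 0.1 RPKM in both tracks the highest ratio was 2.62, on chromosome 2. With at most 10 reads per bin the ratio of that block was 0.711. So a wide spread was not particular to the centromere side. Knockout was higher on 11 of 19 chromosomes, while in the rest of the autosomes it was higher on 12 of 19. On 11 of 19 the ratio exceeded that of the rest of the same chromosome. Both counts of 11 include chromosome 14, with its very low levels. After chromosome 11, at 0.671 and 1.49 RPKM in control and knockout, chromosome 16 had the highest ratio, 1.72, with 0.343 and 0.591 RPKM. It was followed by chromosome 7, which went from 0.261 to 0.444 RPKM, a ratio of 1.70. Chromosome 19 followed closely, with 0.379 and 0.629 RPKM, a ratio of 1.66. The lowest ratios belonged to chromosome 13, with 0.438 and 0.320 RPKM, a ratio of 0.732, and to chromosome 3, with 0.335 and 0.245 RPKM and the same ratio of 0.732. Chromosome 4 followed with 0.373 and 0.301 RPKM, a ratio of 0.806. The ratio of chromosome 9 was 0.911, and 0.726 without its windows at 10 times the mean. With at most 10 reads per bin, chromosome 11 came to 1.44, below chromosomes 16, 7 and 19 at 1.64, 1.62 and 1.59.

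At the telomere side ratios ran from 0.690 to 1.86, with an SD of 0.323 over 19 chromosomes. With at most 10 reads per bin the SD was 0.308 here and 0.331 at the centromere side without chromosome 14, so both sides then varied about equally. Knockout was higher on 14 of 19, against 12 of 19 in the rest of the autosomes, and on 15 of 19 the ratio exceeded that of the rest of the same chromosome. The highest ratio, 1.86, belonged to chromosome 4, which had the lowest control level of all subtelomeric ends, 0.245 RPKM, against 0.456 RPKM in knockout. Chromosome 11 went from 0.373 to 0.623 RPKM, a ratio of 1.67. Chromosome 15 went from 0.476 to 0.749 RPKM, the highest knockout level on this side, a ratio of 1.57. The lowest ratios were found on chromosome 17, with 0.382 and 0.263 RPKM, a ratio of 0.690, on chromosome 3, with 0.450 and 0.320 RPKM, a ratio of 0.710, and on chromosome 18, with 0.385 and 0.292 RPKM, a ratio of 0.758. The highest control level was that of chromosome 6, at 0.505 RPKM, with 0.590 RPKM in knockout.

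The 2 ends of a chromosome did not always go together. Relative to the rest of its own chromosome, the ratio was higher at both ends on 9 autosomes (2, 7, 8, 10, 11, 12, 14, 16 and 19) and lower at both on chromosomes 3 and 13. Chromosome 14 is among the 9 on only 80 control reads and 846 knockout reads at its centromere side. On 6 chromosomes it was higher at the telomere side alone, and chromosome 4 was the most unequal of these, with 0.806 at the centromere side and 1.86 at the telomere side. On chromosomes 17 and 18 it was higher at the centromere side alone. Chromosome 17 had 1.29 there and 0.690 at its telomere side. Over the 18 pericentromeric ends without chromosome 14, the levels were 0.413 and 0.505 RPKM, a ratio of 1.22.

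**Figure D4:**
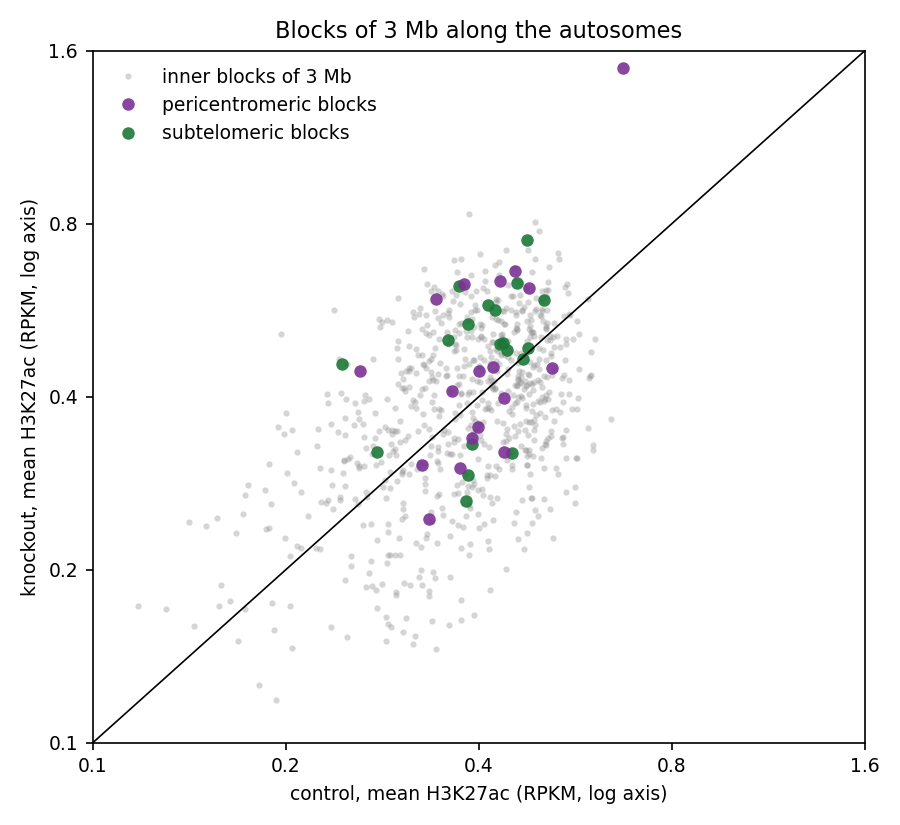
Mean H3K27ac of blocks of 3 Mb in the control (x axis) and knockout (y axis) tracks, in RPKM on log axes, for inner blocks of the autosomes (grey), pericentromeric blocks (purple) and subtelomeric blocks (green), with the line of equality. Blocks at or below 0.1 RPKM in either track, 11 inner ones and the pericentromeric one of chromosome 14, are not drawn. Apart from chromosome 11 at the top, the ends lie within the cloud of inner blocks.

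To see how unusual such values are along a chromosome, the autosomes were tiled in inner blocks of 3 Mb, of which 755 had a ratio. The ratios of inner blocks had a median of 1.03, 10% of them lay below 0.632 and 10% above 1.55. Of the 19 pericentromeric ends, 5 exceeded that upper limit, none lay below the lower one and 11 lay above the median. With at most 10 reads per bin, and the limit taken from the inner blocks in the same way, 4 exceeded it. The counts of 5, 11 and 4 include chromosome 14, and over the 18 other ends they are 4, 10 and 3. Of the 19 subtelomeric ends, 3 exceeded the upper limit, none lay below the lower one and 13 lay above the median. In the knockout track 6 ends of each kind exceeded 0.566 RPKM, the level that 10% of inner blocks passed. In control 2 pericentromeric ends and no subtelomeric end exceeded the matching limit of 0.510 RPKM. Chromosome 11 in both tracks and the ratio of chromosome 14 were the only values past the highest inner block. The highest inner values were 0.644 RPKM in control, 0.831 RPKM in knockout and a ratio of 3.95. The block with that ratio was near empty, at 0.0207 and 0.0818 RPKM. All other single ends lay within the range of inner blocks.

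**Figure D5:**
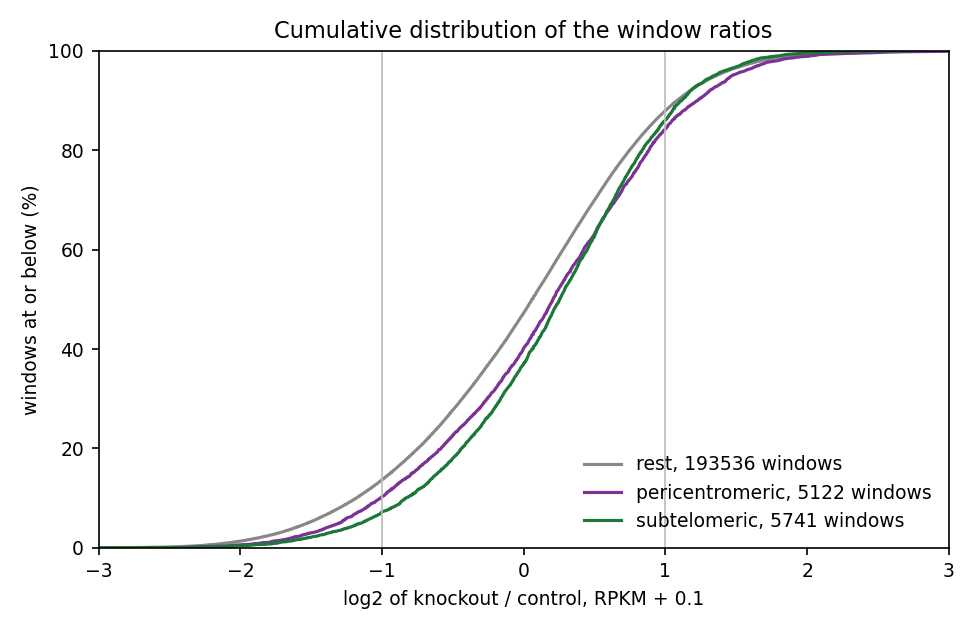
Cumulative share of windows (%) by log2 fold difference (knockout against control, RPKM + 0.1), for the windows compared in the rest of the autosomes (grey), the pericentromeric set (purple) and the subtelomeric set (green). Grey lines mark 2-fold. The medians of the pericentromeric and subtelomeric curves, 0.21 and 0.25, lie to the right of that of the rest, 0.06.

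Windows whose average over both tracks reached the genome-wide mean, 0.379 RPKM, were compared by log2 of (knockout RPKM + 0.1) over (control RPKM + 0.1) and called at 2-fold. This scale understates the change of poor windows. The filter was passed by 5122 of 11400 pericentromeric and 5741 of 11381 subtelomeric windows, or 44.9% and 50.4%, against 42.0% of the rest. At the centromere side 807 windows (15.8%) were at least 2-fold higher in knockout, where 12.2% of all autosomal windows compared were, and 526 (10.3%) were at least 2-fold lower, where 13.4% were. At the telomere side 801 (13.95%) were higher and 414 (7.21%) were lower. The shares of higher windows lay only slightly above the background, and the clearer departure was the smaller share of lower windows at the telomere side. Of the windows called in either direction, 60.5% were higher at the centromere side, 65.9% at the telomere side and 46.8% in the rest. Median log2 ratios were 0.21, 0.25 and 0.06. At 4-fold, where 0.682% of all autosomal windows compared were higher and 1.31% lower, 58 pericentromeric windows (1.13%) were higher and 29 (0.566%) lower. At the telomere side 26 (0.453%) were higher and 25 (0.435%) lower, so the share of higher windows, above the background at 2-fold, lay below it at 4-fold. By chromosome, higher windows outnumbered lower ones at 9 centromere sides and the reverse held at 9, with no window compared on chromosome 14. Higher ones were more numerous at 12 of 19 telomere sides, and in the rest of the autosomes on 7 of 19 chromosomes. At the centromere side of chromosome 16, 102 of 327 windows were higher and 3 lower, whereas at that of chromosome 13, 10 of 249 were higher and 78 lower. The telomere side of chromosome 15 had 94 of 407 higher and 2 lower, and that of chromosome 3 had 7 of 249 higher and 65 lower.

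The extreme windows were ranked without those that had over 20% of 30 or more reads in 1 bin. Apart from the edge of chromosome 11 and the window of chromosome 9 already described, the highest pericentromeric ratio was on chromosome 10 from 5990001 to 5995000. It had 24 control reads and 269 knockout reads, or 0.156 and 1.83 RPKM, an 11.7-fold difference (95% counting interval 7.71 to 18.6) and a log2 ratio of 2.91. Chromosome 16 from 4820001 to 4825000 followed with 6 and 119 reads, a 20.7-fold difference (9.25 to 57.6) whose log2 ratio of 2.71 is reduced by the added 0.1. Chromosome 11 from 5430001 to 5435000 had 27 and 241 reads and a log2 ratio of 2.66. Among the lowest, chromosome 5 from 5110001 to 5115000 had 160 control reads and 12 knockout reads, or 1.04 and 0.0817 RPKM, a log2 ratio of -2.65. The next 4 were on chromosome 13 from 5055001 with 138 and 11 reads, on chromosome 8 from 5330001 with 150 and 15 reads, on chromosome 13 from 5520001 with 144 and 14 reads and on chromosome 8 from 5735001 with 147 and 15 reads. These 5 windows had 0.899 to 1.04 RPKM in control, over the genome-wide mean, and 0.0749 to 0.102 RPKM in knockout. Intervals of windows picked as extremes do not allow for that choice.

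Subtelomeric extremes were of the same size in both directions. The highest log2 ratio, 2.73, was on chromosome 1 from 194455001 to 194460000, with 6 control reads and 121 knockout reads, a 21.1-fold difference (9.41 to 58.6). Chromosome 10 from 127685001 had 21 and 196 reads, chromosome 4 from 155035001 had 9 and 126, chromosome 6 from 146765001 had 18 and 169, and chromosome 19 from 59540001 had 20 and 165. Their log2 ratios lay between 2.41 and 2.60. The lowest, -2.61, was on chromosome 17 from 94060001 to 94065000, with 129 and 8 reads, or 0.841 and 0.0545 RPKM. It was followed by chromosome 10 from 129175001 with 131 and 12 reads, chromosome 18 from 90070001 with 145 and 15, chromosome 13 from 119435001 with 211 and 28, and chromosome 1 from 194795001 with 124 and 12. The last began a run of lower windows of 25 kb, from 194795001 to 194820000, with means of 0.975 and 0.217 RPKM.

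The richest windows of each track were different places at the telomere side. In control they were chromosome 3 from 159505001 to 159510000 with 1.68 RPKM, chromosome 17 from 94365001 to 94370000 with 1.63 RPKM and chromosome 12 from 121000001 to 121005000 with 1.597 RPKM. Their knockout levels were 0.783, 0.572 and 0.477 RPKM. In knockout they were chromosome 1 from 195270001 to 195275000 with 2.26 RPKM, chromosome 8 from 131175001 to 131180000 with 2.18 RPKM and chromosome 2 from 179745001 to 179750000 with 2.13 RPKM. Their control levels of 1.11, 1.11 and 0.932 RPKM were also well above the mean. The windows richest in control were thus lower in knockout, and those richest in knockout were higher there; picking extremes of 1 track favours such an outcome. At the centromere side the richest control window after those of chromosomes 11 and 18 was on chromosome 3 from 4215001 to 4220000, with 1.63 and 0.586 RPKM. Left out of these rankings for reads in 1 bin were, among the richest, chromosome 9 from 3025001 to 3030000 with 281 and 2685 reads, and at the telomere side chromosome 5 from 149940001 to 149945000 with 113 and 366 reads, chromosome 8 from 130040001 to 130045000 with 72 and 325 and chromosome 14 from 123955001 to 123960000 with 134 and 273.

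Adjacent windows with the same call formed runs, which were mostly single windows. At the centromere side there were 438 higher runs, 13 of them of 30 kb or more, and 358 lower runs, 5 of that length. At the telomere side there were 496 and 288, with 10 and 1 of that length. Runs were not counted in the rest of the autosomes, so whether these numbers are particular to the ends was not tested. Besides the 80 kb run around the rich stretch of chromosome 11, the longest higher runs were on chromosome 7 from 5030001 to 5085000, with 0.415 and 1.38 RPKM in control and knockout, and on chromosome 16 from 4025001 to 4075000, with 0.383 and 1.22 RPKM. The telomere side of chromosome 15 held the longest pair, from 101910001 to 101965000 with 0.390 and 1.34 RPKM and from 102130001 to 102180000 with 0.424 and 1.30 RPKM. On chromosome 5, the run from 151230001 to 151275000 had 0.280 and 0.972 RPKM. Knockout was about 3 times control in each of these, from 3.07 to 3.47. The longest lower runs at the centromere side were 35 kb each, on chromosome 10 from 4210001 to 4245000 with 0.825 and 0.203 RPKM and on chromosome 3 from 4650001 to 4685000 with 0.783 and 0.163 RPKM. Runs of 30 kb followed on chromosomes 13, 15 and 8. The longest at the telomere side was 30 kb, on chromosome 18 from 89360001 to 89390000, with 0.912 and 0.254 RPKM.

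Windows rich in H3K27ac, at 3 times the mean of their own track or more, were scarce in control and more frequent in knockout at both ends, as in the rest. At the centromere side they numbered 169 (1.48%) in control and 857 (7.52%) in knockout, and 57 windows were rich in both. At the telomere side they numbered 167 (1.47%) and 977 (8.58%), with 51 rich in both. In the rest the shares were 1.75% and 6.27%. The ends thus had slightly fewer rich windows than the rest in control and slightly more in knockout. Rich knockout windows numbered 140 at the telomere side of chromosome 15, against 4 in control, and 106 at the centromere side of chromosome 11, against 15. On chromosome 19 the centromere side had 100 in knockout and none in control. The telomere side of chromosome 17 went the other way, with 24 rich windows in control and 11 in knockout, and so did that of chromosome 18, with 20 and 8.

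The higher knockout level of the ends was also seen among windows of similar control level. Windows with 0.4 to 0.6 RPKM in control had a median of 0.477 RPKM in knockout at the centromere side, 0.525 RPKM at the telomere side and 0.402 RPKM in the rest, so the ends stood at 1.19 and 1.31 times the rest. At 0.8 to 1.2 RPKM in control the medians were 0.804, 0.892 and 0.756 RPKM, or 1.06 and 1.18 times. Among windows with 0.1 to 0.2 RPKM in control they were 0.184, 0.198 and 0.163 RPKM. Below 0.05 RPKM in control the windows were not alike in control level, with control medians of 0, 0.0261 and 0.0196 RPKM at the centromere side, at the telomere side and in the rest. The median knockout level was 0.0204 RPKM at the centromere side, over 1702 windows, against 0.0749 RPKM at the telomere side and 0.0613 RPKM in the rest. Chromosome 14 supplied 599 of the 1702, and the other 1103 had medians of 0.0130 RPKM in control and 0.0477 RPKM in knockout.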

How the data were processed

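H3K27ac was measured in 4 samples, 2 per genotype, which share 1 deposited track per genotype per the labels. The deposited values are RPKM in bins of 100 bp, as the authors made them, and list no empty bins, which were set to 0. The unit was inferred from their sum. The submitters' processing notes name mm9 and Bowtie2 2.2.2; for duplicates, read extension, repeats and input the handling is not given in the sources used here. Every value was a whole number of reads within 0.005 RPKM. Of the bins with reads, 43.0% in control and 52.9% in knockout held an even number of them. Whether reads were counted in pairs was not tested, and the counting intervals treat each as single.

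Windows of 5 kb (partial last windows left out) were grouped by position with the mm9 chromosome lengths, before which the last autosomal bins with reads lay 83 to 17264 bases. Calls used log2(RPKM + 0.1), the genome-wide mean over autosomes and X as the filter, and 2-fold. Pooled tracks allow no test. Intervals are exact binomial (Clopper-Pearson) at 95%. Named windows were the 5 highest and 5 lowest ratios per set at least 250 kb apart, the 3 richest in each track, the 3 longest runs each way, and the chromosomes at either extreme. The members and lists were chosen with earlier results of these data known. Alternatives were other summaries, limits on reads per bin, widths, pseudocounts, filters, folds, window sizes and scalings. The 2-fold calls, the ratios relative to the rest and the recovery of read numbers were first tested on simulated data, and the other steps were not. Calls and ratios were simulated with independent counts, which are less uneven than these reads. The other 54 samples were not analysed here. Versions were SciPy 1.17.1, pandas 2.3.3, matplotlib 3.10.9 and NumPy 2.4.6 under Python 3.11.15. With no mm9 genome used here, no sequence is printed.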

Additional observations from a re-analysis of the deposited data

Results flagged for a closer look

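A single bin of 100 bp on chromosome 9, from 2999901 to 3000000, lies just before the windows compared and held reads in both tracks. It had 534 knockout reads and 29 control reads, or 18.2 and 0.945 RPM (reads scaled to library size), a 19.2-fold difference (95% counting interval 13.2 to 29.0), and it drew attention because it carries signal above control outside the windows measured. The corresponding bin of chromosome 6 had 10 knockout reads and no control read. The next window on chromosome 9, from 3000001 to 3005000, was also higher in knockout, at 8.52-fold.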

How the results depend on the processing

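No paired analysis was possible because the tracks were deposited with replicates already merged, and leaving out a replicate was not possible for the same reason. Leaving out windows at 10 times the mean and leaving out chromosome 14 were chosen after seeing the data. Knockout over control relative to the rest stayed above 1 in all 7 settings, from 1.07 to 1.54 at the centromere side and from 1.04 to 1.31 at the telomere side. The value of 1.54, for 1 Mb, holds all 23 pericentromeric windows at 10 times the mean. Leaving out windows empty in both tracks cannot change that ratio, so this setting is no check of it. The values below give the pericentromeric level relative to the rest in control and in knockout, then knockout over control relative to the rest, whose values in the main setting were 1.02, 1.22 and 1.19. They were 1.00, 1.19 and 1.19 by medians, 0.993, 1.09 and 1.10 with at most 10 reads per bin, 1.05, 1.25 and 1.19 without windows empty in both, 0.930, 1.43 and 1.54 for 1 Mb, 1.03, 1.11 and 1.07 for 5 Mb, 0.985, 1.09 and 1.10 without windows at 10 times the mean, and 1.08, 1.28 and 1.19 without chromosome 14. The control level thus turned below 1 in 3 settings; 2 of them remove the rich windows by construction, and for 1 Mb the cause was not tested. The same values at the telomere side were 1.07, 1.23 and 1.15, then 1.12, 1.47 and 1.31 by medians, 1.07, 1.23 and 1.15 with at most 10 reads per bin, 1.06, 1.21 and 1.15 without empty windows, 1.11, 1.16 and 1.04 for 1 Mb, 0.954, 1.18 and 1.23 for 5 Mb, which takes in the poorer control sequence further inward, 1.07, 1.24 and 1.15 without windows at 10 times the mean, and 1.06, 1.22 and 1.15 without chromosome 14. Windows at least 2-fold higher and lower at the centromere side, 807 and 526, numbered 204 and 67 with a pseudocount of 0.5. Without the filter they numbered 1249 and 1048, for a limit of 1.5-fold 1672 and 1022, and in windows of 10 kb 373 and 215. At the telomere side, 801 and 414 became 136 and 52, 1299 and 825, 1857 and 893, and 321 and 164. With a pseudocount of 0.5 the share of higher windows was 3.98% at the centromere side, 2.37% at the telomere side and 2.70% in the rest, so the telomere side, above the rest in the main setting (13.95% against 12.04%), fell below it. These counts follow from the rule or the number of windows. They stayed within 1.5 times with knockout scaled by 0.966 to equal autosomal means, with at most 10 reads per bin and without windows at 10 times the mean. The share of higher among called windows moved from 60.5% to 75.3% at the centromere side with a pseudocount of 0.5. No log2 ratio of the 35 named windows turned sign in any of 140 values, and 49 values left the counting interval of the main setting. A pseudocount cannot change the sign, and scaling by 0.966 is too small to do so in these windows. Only the limit of 10 reads per bin could have turned a sign. Depth limits poor windows most, such as those of chromosome 14 with at most 8 control reads.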

Other observations

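Control and knockout tracks were related across windows at the ends much as elsewhere. Pearson's r of log2(RPKM + 0.1) was 0.754 over 11400 pericentromeric windows, 0.708 over 11381 subtelomeric windows and 0.703 over the rest, and Spearman's rho was 0.727, 0.699 and 0.703. Windows are not replicates and share library, depth and neighbours, so these are descriptions with no p.

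Reads reached 44.4% of the bins of pericentromeric windows in control and 35.99% in knockout, 48.9% and 40.7% at the telomere side, and 45.0% and 34.2% in the rest. The unevenness of reads inside windows without a bin above 10 reads, as the variance over the mean, was 1.95, 1.91 and 1.92 in control and 2.92, 2.89 and 2.89 in knockout. Both ends thus had the unevenness of other sequence in each track once single piles were left aside. Windows dominated by 1 bin (30 or more reads, over 20% of them there) made up 9.68% at the centromere side, 8.51% at the telomere side and 8.55% in the rest.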
